A study of Homo sapiens with 3 samples.

Results

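The death receptor pathway of FAS and TRAIL was followed through 8 genes, of 18674 with a value, in the messenger RNA of A2780 cells, a line established from an undifferentiated ovarian tumour. The genes were 5 receptors (FAS, TNFRSF10A, TNFRSF10B, TNFRSF10D and TNFRSF1A), the adaptor FADD, the initiator caspase CASP8 and its inhibitor CFLAR. They were found by symbol and hold 18 of 28848 transcript rows, each row being 1 RefSeq transcript. The genes were chosen by the difference between miR-181a cells and vector cells, which was known when they were listed, so that difference is described here without a test. One library came from cells with the empty retroviral vector pBABE. The other 2 libraries came from p181a #1 and p181a #2, cells with exogenous miR-181a, called pool 1 and pool 2 here. The labels speak of polyclonal pools in one place and of clones in another, and do not say whether they were separate cultures, so p-values here rest on how far apart these 2 libraries lie, and that distance may be only technical. All 3 libraries are of the same line with a stably expressed construct, and the labels name no drug or ligand. The value of a row is coverage, a read density per window of transcript length, so it is scaled to length. Rows of 1 gene often differ in the vector library, so levels compare between genes only roughly there. No counts come with the coverage, so the depth is unknown.

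FAS and the TRAIL receptors sit in the cell membrane and, when their ligands bind, gather the adaptor FADD through death domains. FADD recruits CASP8, which cleaves itself and then the executioner caspases, directly or through BID and the mitochondria. CFLAR, also called FLIP, resembles CASP8 without its catalytic activity and competes for the same complex. TNFRSF10D is a decoy that binds TRAIL without passing on a full death signal, and TNFRSF1A, the main TNF receptor, uses the adaptor TRADD before it can reach FADD and CASP8.

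Because the title of the series asks for genes that miR-181a acts on, the 3 prime untranslated regions (UTRs) of the genes were searched for its seed. The mature strand, from RefSeq (GRCh38.p14), is printed with its seed (bases 2 to 8) in capitals, and matches from the GENCODE annotation on GRCh37 follow with the matching letters in capitals.
hsa-miR-181a-5p: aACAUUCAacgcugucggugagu
FAS, chr10:90774506-90774535, plus strand: attctgtagtaTGAATGTAatcagtgtatg
CFLAR, chr2:202041149-202041178, plus strand: ttgctcagaccTGAATGTAcccattgtaac
The search used TGAATGT, opposite bases 2 to 8 of the strand. It also used GAATGTA, which ends in the A after the seed, and counted both together, TGAATGTA, as 1 match. Only the transcript strand was read. In the longest annotated 3 prime UTR of each gene, 3 of the 8 genes held a match, 37.5%, against 28.2% of 11001 tested genes with such a UTR. The FAS match, of the full TGAATGTA form, starts at base 310 of a 1335-base UTR. The CFLAR match shown, of the same form, starts at base 12464 of a UTR of 12714 bases. TNFRSF10B has 1 match, TGAATGT, at base 196 of 2538. None was found in the longest UTR of TNFRSF10A, TNFRSF10D, TNFRSF1A, FADD or CASP8, although at least 1 of the 12 annotated UTRs of CASP8 holds a match. The median UTR was 1288.5 bases over the 8 genes and 1447 over the tested genes. The 3 genes with a match did not share a direction: FAS was lower in both pools, TNFRSF10B was higher in both, and the CFLAR rows were split. A match describes the sequence only, and the amount of miR-181a in these cells was not analysed here.

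Some properties of the libraries touch every value below. Folds are differences of log2(coverage + 1), pool minus vector, and a gene is called higher or lower where both pools differ by at least 1 such unit (the size rule). Transcript rows were listed at 0 in 12.8% of cases in vector cells and in about 32% of cases in the pools (32.3% and 32.2%), so many rows have a vector value where the pools have none. Among all 12552 genes that passed a filter on low values, limma with a Benjamini-Hochberg adjustment at 0.05 found that 126 rose (1.00%) and 2725 fell (21.7%). The split depends on scaling: it was 6355 and 3701 with library medians set equal, and 710 and 5784 after each pool was shifted by the median fold of the 2124 genes with a pool mean above 50 (0.64 in pool 1 and 0.30 in pool 2). Without scaling, the median tested gene stood at 0.24 for pool 1 and -0.12 for pool 2. Of the epithelial markers, 4 of 6 were listed at 0 in both pools (EPCAM, CDH1, KRT7 and KRT19), while KRT8 and KRT18 were present, and the list summed to 125 in vector cells and to 15.8 and 15.4 in the pools. Of the ovarian carcinoma markers, 4 of 6 were at 0 in both pools, and WT1 was at 0 in all 3 libraries. Their sums were 116, 0.54 and 1.21, and ESR1 alone made up 104 of the vector sum. Immune markers were at 0 in both pools for 6 of 10, with sums of 59.9, 3.61 and 4.72, and LYZ was at 0 in all 3 libraries.

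By the size rule, 1 of the 8 genes was higher in the pools (TNFRSF10B) and 2 were lower (FAS and TNFRSF10A), beside 2.53% higher and 27.3% lower among the genes tested. By row, 2 of 18 were higher and 4 lower, beside 2.41% and 25.7% of all rows. The filter was passed by 7 of the 8 genes. TNFRSF10A did not pass, and FAS passed through its vector value. The median fold of the 8 genes was 0.19, beside 0.07 over all genes tested. These shares are given as a background, since the contrast also chose the genes.

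**Figure D1:**
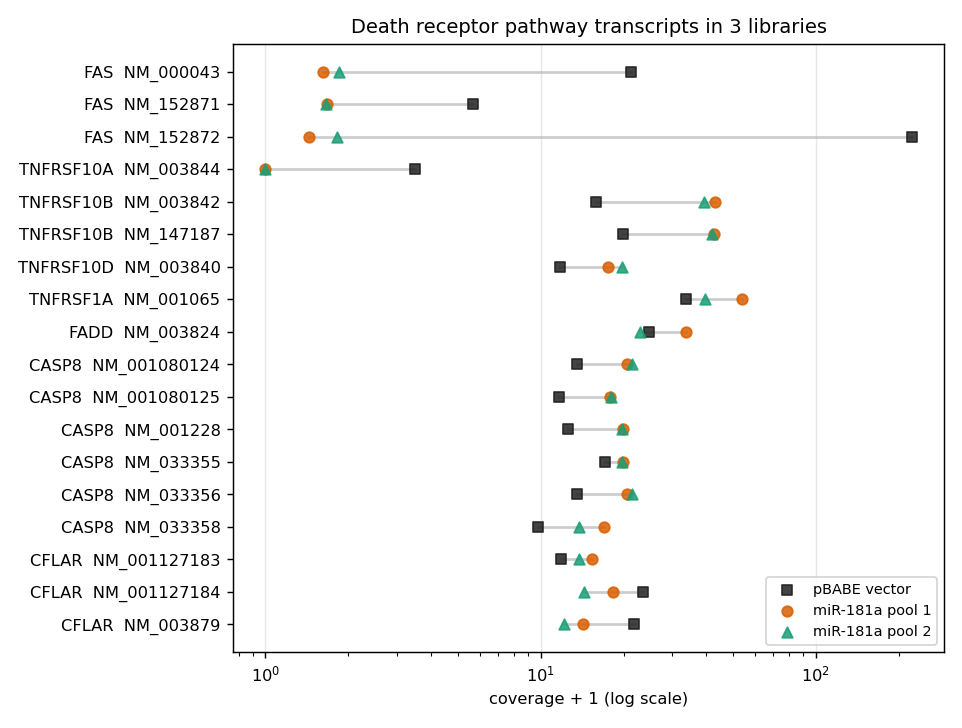
Coverage + 1 on a log scale (horizontal) of the 18 transcript rows of the 8 genes (vertical), with squares for the vector library, circles for pool 1 and triangles for pool 2; each grey line spans the 3 values of a row. The 3 FAS rows and the TNFRSF10A row have vector squares to the right of both pools, and the 2 TNFRSF10B rows have them to the left.

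FAS, the receptor for FAS ligand, showed the widest gap between the vector library and the pools of the 8 genes. It lies on chromosome 10 (90750414 to 90775542, plus strand, GRCh37, protein coding), with the seed match shown above in its 3 prime UTR. Transcript NM_152872 read 223 in vector cells, 0.434 in pool 1 and 0.826 in pool 2. For NM_000043 the values were 20.3, 0.624 and 0.851. NM_152871 had 4.67, 0.68 and 0.655. In every row the vector library stood above both pools, and the pools lay close together, at 0.63 ± 0.28, 0.74 ± 0.16 and 0.67 ± 0.018 (SD, n = 2). The size of the gap depended on the row, with mean log2 folds of -7.11, -3.62 and -1.77. It also depended on the pseudocount, since all pool values were below 1: the fold of NM_152872 was -8.31 with 0.1 added and -4.45 with 10 added. All 3 rows stayed lower than the vector after the shift by well-covered genes, the closest at -2.40 and -2.07 in the 2 pools.

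The 3 FAS transcripts lay between 0.434 and 0.851 in the pools and between 4.67 and 223 in vector cells. On the coverage + 1 scale, the highest FAS row was 39.5 times the lowest in vector cells, 1.17 times in pool 1 and 1.12 times in pool 2, where the added 1 exceeds the values and holds the ratio near 1. Rows at least 10 times apart were found in vector cells for 9.84% of the 5273 genes with unlike rows, and in the pools for 0.57% and 0.51%. Of 2451 rows with a pool mean above 0 and up to 1, as the FAS rows have, 47.9% were lower by the size rule, and their median vector value was 1.75. A vector value as high as that of NM_152872 occurred in 0.45% of those rows, as high as that of NM_000043 in 8.89%, and as high as that of NM_152871 in 33.5%. ACTA2, whose exons overlap FAS on the opposite strand, had 25.5 in vector cells, 3.01 in pool 1 and 3.70 in pool 2. How strand was used in counting is not given here. The immune marker sum was higher in vector cells as well (59.9, against 3.61 and 4.72), and its part in the FAS difference was not tested. In bulk RNA, fewer cells with a transcript and less of it per cell cannot be told apart.

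TNFRSF10A, also called DR4, is one of the 2 TRAIL receptors with a death domain among these genes, and it was listed at 0 in both pools. It lies on chromosome 8 (23047965 to 23082615, minus strand) and has 1 row, NM_003844, with a vector coverage of 2.48. No fold is given against values of 0, which a median over windows also yields where most windows have no read. Among the 8822 rows at 0 in both pools, 51.0% were lower by the size rule, and 40.1% had a vector value at least as high as that of TNFRSF10A. Its vector value was the lowest of the 8 genes.

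TNFRSF10B, also called DR5, the other TRAIL receptor with a death domain, was higher in the pools. The gene lies on the same chromosome (22877646 to 22926544, minus strand). Transcript NM_147187 read 18.9 in vector cells, 41.6 in pool 1 and 40.8 in pool 2. For NM_003842 the values were 14.9, 41.9 and 38.3. Both pools stood above the vector library in both rows, and the pools differed by little, at 41.2 ± 0.51 and 40.1 ± 2.51 (SD, n = 2). Mean log2 folds were 1.08 and 1.37. Of the 8185 rows with a pool mean above 10 and up to 50, 3.74% were higher and 5.45% lower by the size rule. After the shift by well-covered genes the folds were 0.45 and 0.77 for NM_147187 and 0.79 and 1.01 for NM_003842, still above 0 in both pools but no longer past the size rule. RHOBTB2, which overlaps TNFRSF10B on the opposite strand, had 47.5 in vector cells and 7.26 and 4.88 in the pools, so it differed in the other direction.

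TNFRSF10D, the decoy TRAIL receptor (chromosome 8, 22993101 to 23021540), and TNFRSF1A, the TNF receptor (chromosome 12, 6437923 to 6451280, minus strand), were higher in both pools than in vector cells by less than the size rule. TNFRSF10D (NM_003840) had 10.7 in vector cells, 16.6 in pool 1 and 18.8 in pool 2. Its folds were 0.58 and 0.75, and after the shift -0.06 and 0.46, which turns the sign in pool 1. TNFRSF1A (NM_001065) had 32.7, 53.1 and 38.7. Its folds were 0.68 and 0.24, and after the shift 0.04 and -0.06, which turns the sign in pool 2. The vector value of TNFRSF1A was nearer to pool 2 than pool 2 was to pool 1.

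FADD, the adaptor shared by the receptors (chromosome 11, 70049402 to 70053496, plus strand), showed no common direction. NM_003824 had 23.8 in vector cells, 32.6 in pool 1 and 22.01 in pool 2. The vector value lay between the pools, as in 17.7% of tested genes with a pool mean above 10. The gap of -0.55 log2 units from pool 1 to pool 2 was the widest between the pools among the 8 genes, beside a median of -0.27 over all tested genes. After the shift both FADD folds were below 0, at -0.20 and -0.40.

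CASP8, the initiator caspase that FADD recruits (chromosome 2, 202098166 to 202226559, plus strand), was above the vector library in both pools in all 6 rows, but by less than the size rule. NM_033355, the row that stands for the gene because its average was greatest, had 16.2 in vector cells, 18.9 in pool 1 and 18.7 in pool 2. NM_001080124 and NM_033356 had the same values in each library, 12.5, 19.5 and 20.4. The pools were close together and above the vector in both cases. NM_001228 had 11.6 in vector cells and the same 18.9 and 18.7 in the pools as NM_033355. These 2 rows therefore differed only in vector cells. Among 1408 groups of rows of 1 gene with the same value above 0 in each pool, the vector value differed in 78.3%. NM_001080125 had 10.7, 16.9 and 17.1, and NM_033358 had 8.79, 16.0 and 12.7. Mean log2 folds of the 6 rows ran from 0.20 to 0.65. After the shift they did not keep a common sign: NM_033355 was below 0 in both pools (-0.43 and -0.10), NM_001228 and NM_033358 above 0 in both (0.01 and 0.35, 0.15 and 0.19), and NM_001080124, NM_033356 and NM_001080125 were on either side.

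CFLAR, the inhibitor of CASP8 (chromosome 2, 201980877 to 202041410, plus strand), had rows that differed in direction. NM_001127184 had 22.5 in vector cells, 17.3 in pool 1 and 13.3 in pool 2. For NM_003879 the values were 20.7, 13.3 and 11.2. In both of these rows the vector library was above both pools, with mean log2 folds of -0.54 and -0.72. NM_001127183 had 10.8, 14.4 and 12.8, so both pools were above the vector, with a mean log2 fold of 0.30. The pools placed the 3 rows within 1.28 times of each other in pool 1 and 1.18 times in pool 2, on the coverage + 1 scale, while in vector cells the span was 1.99 times. A span of at least 2 was found for 38.9% of genes with unlike rows in vector cells, and for 4.06% and 3.89% in the pools. After the shift all 3 rows were below 0 in both pools, from -1.25 to -0.07. NM_003879 (-1.25 and -1.13) and NM_001127184 (-1.01 in each) then reached the size rule, and NM_001127183 did not. The antisense RNA gene CFLAR-AS1 overlaps CFLAR exons.

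**Figure D2:**
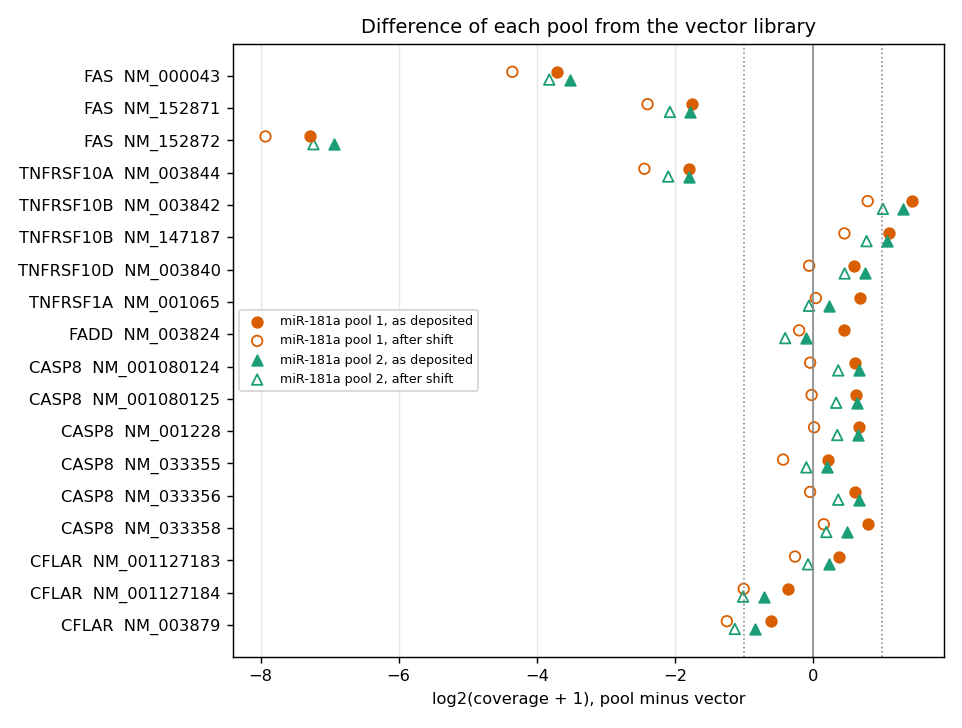
Difference in log2(coverage + 1), pool minus vector (horizontal), for each transcript row (vertical), in pool 1 (circles) and pool 2 (triangles); filled symbols are the deposited values, open symbols the values after each pool was shifted by 0.64 or 0.30, and dotted lines mark 1 unit. FAS and TNFRSF10A lie left of the lower dotted line with and without the shift (TNFRSF10A at a place set by the pseudocount, since both pools are at 0), TNFRSF10B lies right of the upper line in both pools only without it, and the other symbols move left, some of them across 0.

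Read across the genes by the row used for each, the pools had TNFRSF1A at 45.9 ± 10.2 and TNFRSF10B at 41.2 ± 0.51 (SD, n = 2), whose ranges overlapped. FADD followed at 27.3 ± 7.50, then CASP8 at 18.8 ± 0.091, TNFRSF10D at 17.7 ± 1.54 and CFLAR at 15.3 ± 2.82 (SD, n = 2). Neighbours from CASP8 to CFLAR in that order did not differ beyond the spread between the pools. FAS at 0.63 and TNFRSF10A at 0 came last. In the vector library the order began with FAS at 223, followed by TNFRSF1A at 32.7, FADD at 23.8 and CFLAR at 22.5. The place of FAS in that order rests on NM_152872, since its lowest row, at 4.67, stood below every other gene except TNFRSF10A. Of the 6 genes with a pool mean above 10, 4 were above the vector in both pools, 1 below and 1 on either side, beside 62.9%, 19.4% and 17.7% of tested genes at that level. None of these 6 differed by 1 log2 unit between the pools, as 0.623% of such genes did.

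**Figure D3:**
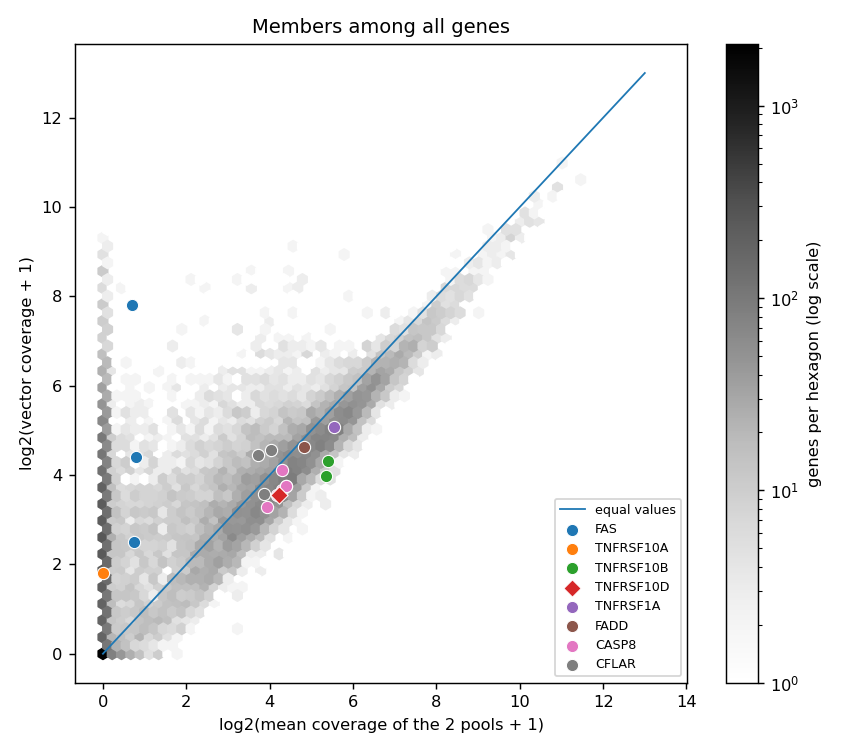
Vector coverage (vertical) against the mean of the 2 pools (horizontal), both as log2(coverage + 1); grey hexagons count all 18674 genes on a log scale, coloured points are the 18 rows of the 8 genes (TNFRSF10D as a diamond), and the line marks equal values. The FAS rows lie above the line over a wide range of vector values at nearly 1 pool level, and the TNFRSF10B rows lie below it.

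The genes nearest to FAS by Euclidean distance over the 3 libraries were RILP, SPINT2 and ACTL8. RILP had 188 in vector cells and 0.90 and 0.374 in the pools, at a distance of 0.63 log2 units. SPINT2 had 321, 0.308 and 0.471, also at 0.63, and ACTL8 had 253, 1.05 and 1.30, at 0.64. The genes nearest to TNFRSF10B were ASCC1, at a distance of 0.046, EME1 at 0.13 and SAT2 at 0.14, with vector values from 18.4 to 20.1 and pool values from 40.6 to 44.6. With 3 libraries and 12552 genes a close pattern is common, and the distances describe these values only.

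The rest of the pathway was read from a list of 47 genes by role, chosen with results of these data known, of which 34 were tested. None rose and 6 fell (17.6%) by limma with Benjamini-Hochberg adjustment, near the 21.7% of all tested genes that fell. At an unadjusted p under 0.05, 0 were higher and 10 lower, and no other tool was run. The share of all tested genes lower at that cutoff was not counted. It is at least the 21.7% that fell after adjustment. Counts by role at that cutoff, given below, lack this background too. The list's median log2 fold was -0.08, beside 0.07 over all tested genes. The split moved with scaling, to 16 that rose and 11 that fell with library medians set equal and to 1 and 16 after the shift. With 1 residual degree of freedom, very small adjusted p-values over alternative settings rest mainly on variance shared across genes, not the gene's own.

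Of 4 ligands, 3 were listed at 0 in both pools. TNFSF10, which encodes TRAIL, had 6.15 in vector cells, 1.71 in pool 1 and 2.28 in pool 2, and missed the test (log2 fold -1.26, SE 0.16, limma adjusted p = 0.0527, and 3.16e-05 to 0.119 over the alternatives). With a pool mean of 2.00, TNFSF10 passed the filter only through its vector value. FASLG, the FAS ligand, had 6.39 in vector cells and was listed at 0 in both pools, below the filter. TNF and LTA were at 0 in all 3 libraries.

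Of 8 other receptors and decoys, 3 were tested and 2 fell, beside 21.7% of all tested genes. TNFRSF6B, a soluble decoy for FAS ligand, had 8.93 in vector cells and 4.27 and 3.96 in the pools (log2 fold -0.96, SE 0.12, limma adjusted p = 0.0494, from 5.68e-06 to 0.593 over the alternatives). It passed in 3 of 9 alternatives, and with the row of the lowest vector value its fold was 0.07. TNFRSF1B, the other TNF receptor, had 18.1 and was listed at 0 in both pools. TNFRSF25, a death domain receptor, had 10.5, 5.28 and 2.84 and did not pass; its fold ran from -1.70 to 1.09 over the alternatives. The TRAIL decoy TNFRSF10C was low in all 3 libraries, at 0.255, 1.04 and 0.438.

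Among 9 adaptors and partners of the later complexes, 6 were tested and none passed; at an unadjusted p under 0.05, 2 were lower. TRADD, the adaptor of TNFRSF1A, had 41.0 in vector cells and 9.68 and 7.10 in the pools (log2 folds of -1.97 and -2.37, limma adjusted p = 0.0781), and it passed in 3 of 10 alternatives. RIPK1, a kinase that signals survival or death downstream of TRADD, had 9.67, 16.2 and 13.6. MADD, a death domain protein that binds TNFRSF1A, had 42.2, 20.3 and 15.7, but only 1 of its 10 rows met the size rule. Its fold of -1.19 turned to 0.66 with the row highest in the pools, 0.74 with the row of the lowest vector value and 0.11 with the mean of its rows. CASP10, the close relative of CASP8, had 0.238, 0 and 0.238, and RIPK3, the necroptosis kinase, had 5.06 in vector cells and 0 in both pools.

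All 9 genes of the executioner and mitochondrial arm were tested and none passed, with 1 lower at an unadjusted p under 0.05. APAF1, the scaffold of the apoptosome, had 22.8 in vector cells and 7.04 and 6.69 in the pools (limma adjusted p = 0.0786), with 2 of 5 rows lower by the size rule and a fold of 0.70 with the row of the lowest vector value. It passed in 6 of 10 alternatives, with log2 folds from -2.07 to 0.70. BID, which carries the CASP8 signal to mitochondria, had 19.3, 44.97 and 32.0, and CYCS, cytochrome c, had 150, 247 and 236.

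Of 17 genes listed as inhibitors and ubiquitin regulators, 15 were tested and 4 fell (26.7%), near the 21.7% of all tested genes. That role name does not describe GALNT3, 1 of the 4. CYLD, a deubiquitinase that limits survival signalling from TNF receptors, had 43.5 in vector cells and 3.70 and 2.93 in the pools (log2 fold -3.37, SE 0.27, limma adjusted p = 0.0222). Its 3 rows were all lower by the size rule, and it passed in 10 of 10 alternatives with a test, with log2 folds from -3.84 to -1.72. BIRC3, a ubiquitin ligase of the TNF receptor complex, had 17.1 and was listed at 0 in both pools, but only 1 of its 2 rows was lower by the size rule. TNFAIP3, also called A20, an inhibitor of NF-kappaB signalling, had 25.3, and GALNT3, a glycosyltransferase, had 351, both listed at 0 in both pools. These last 3 genes and TNFRSF1B passed the filter through the vector value alone, and with no spread between the pools their test is formal. PEA15, a death effector domain protein, had 24.6, 48.7 and 41.2, BIRC6 had 12.1, 23.7 and 19.5, and RBCK1, of the linear ubiquitin ligase, had 89.0, 54.7 and 31.3. The RBCK1 fold of -1.09 turned to 0.89 with the row of the lowest vector value. PEA15, BIRC6 and RBCK1 did not pass the test.

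**Figure D4:**
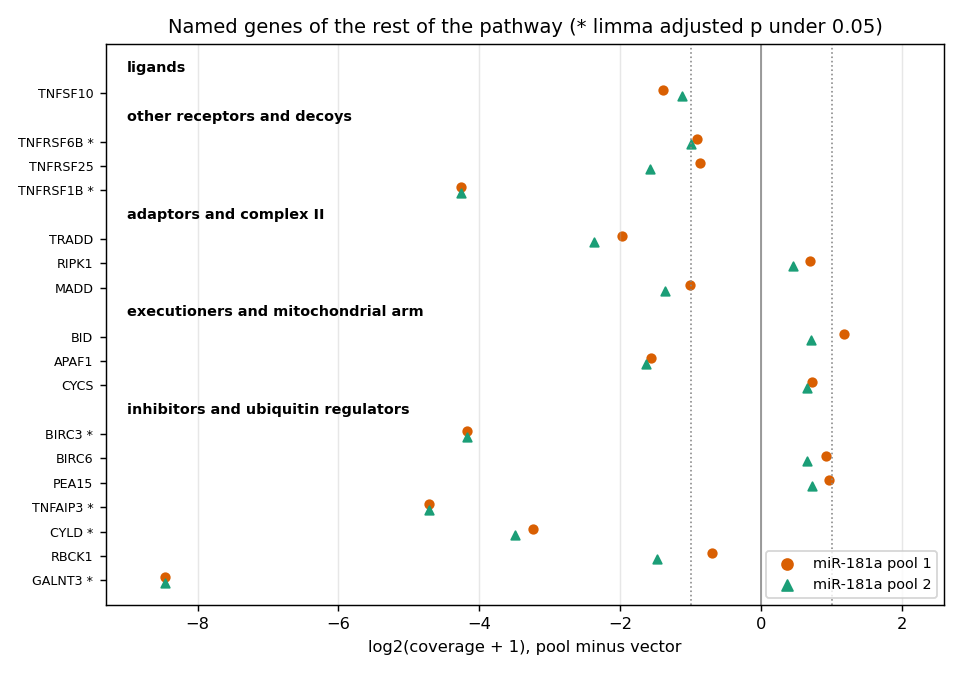
Difference in log2(coverage + 1), pool minus vector (horizontal), for the pathway genes outside the 8 that passed the test or had the largest shared folds of their role, grouped by role (vertical), in pool 1 (circles) and pool 2 (triangles); an asterisk marks a limma adjusted p under 0.05 and dotted lines mark 1 unit. All 6 marked genes lie left of 0, and 4 of them (TNFRSF1B, BIRC3, TNFAIP3 and GALNT3) have both symbols at the same place because both pools are listed at 0.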

How the data were processed

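RNA of the 3 samples was enriched for poly-A transcripts and sequenced. Reads were mapped to hg19, and the authors kept, for each RefSeq transcript, the median of a density profile in windows of 50 bp, per the labels' protocols; a log and a quantile step are named there too, yet the deposited values are linear coverage, and their medians differ (8.74, 5.76 and 4.50). The aligner is not given in the sources used here. Of 29156 rows, 308 without a vector value were left out, none of them a member, and 54 symbols turned into dates were restored by accession. The 6 deposited comparison columns were not used. A gene was represented by its row of greatest average coverage, values became log2(coverage + 1), and after the lowest 25% of genes not at 0 everywhere were dropped, the rest were fitted with limma 3.58.1 in R 4.3.3 (eBayes with trend, Benjamini-Hochberg adjustment, 1 residual degree of freedom). The lone vector library is thus assumed to vary as the pools do. The fit was tested on simulated data. The members and gene lists were chosen with earlier results of these data known. Named genes were all members, every listed gene past the test, up to 3 more per role by shared fold, and the 3 nearest to FAS and TNFRSF10B; TNFRSF10C, FASLG, TNF, LTA, CASP10 and RIPK3 were added after their values were seen. Some single genes and sites are not reported here. Alternatives covered pseudocount, row, scaling, filter, variance trend, threshold and each pool left out.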

Additional observations from a re-analysis of the deposited data

How the results depend on the processing

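TNFRSF10B was the 1 gene of the 8 higher by the size rule, FAS and TNFRSF10A were the 2 lower, and leaving out either pool gave the same counts (1 to 1 higher, 2 to 2 lower). None was higher with a pseudocount of 10, a threshold of 2 log2 units or the shift by genes above 50, and 2 were at a threshold of 0.5. A pseudocount of 10 left 1 lower gene, as did a threshold of 2, and the shift gave 3. Over 7 alternatives of scaling, pseudocount and row, the last of them, the row with the lowest vector value, chosen after seeing the data, the mean fold stayed below 0 for FAS (-8.31 to -1.77) and TNFRSF10A, and above 0 for TNFRSF10B (lowest 0.61) and TNFRSF10D. It changed sign in 1 of 7 for TNFRSF1A, FADD, CASP8 and CFLAR. These counts are weak checks for some genes. TNFRSF10A was at 0 in both pools, so no pseudocount could turn its sign. TNFRSF10A, TNFRSF10D, TNFRSF1A and FADD have 1 row each, so the choice of row only repeated their main value. Over all genes, 402 rose and 1476 fell with a filter at the median, 278 and 5626 with no filter, 6355 rose with medians set equal, and 710 and 5784 after the shift, against 126 and 2725. Of the pathway list, 16 rose and 11 fell with medians set equal, 1 and 12 with no filter, and 1 and 16 after the shift, against 0 and 6; the cause was not tested. With any 3 prime UTR, 4 genes held a seed match. Without one pool no residual degree of freedom is left, so those fits were not run. The vector library has no second copy and could not be left out. No paired analysis was possible because the vector group has 1 library and shares no replicate number with the pools by label.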
